A study of Peromyscus californicus with 17 samples.

Results

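Lung macrophage genes were followed in the lungs of 17 male P. californicus (stock IS), a monogamous mouse, of which 6 were bonded, 6 bond-disrupted and 5 virgin. The members were chosen by name as 8 genes that mark or govern lung macrophages, Marco, Mrc1, Siglec1, Csf1r, Cd68, Adgre1, Itgax and Pparg. Of the 27786 genes in the table, 7 carried the name of a member, and Itgax was not analysed here. The males were 12 to 15 months old. Bonded males (B1 to B6) had lived with a female for 4 months. Bond-disrupted males (BD1 to BD6) had been paired for as long, were then taken from the mating cage, and gave lung tissue 7 days later. Virgin males (V2 to V6) were of similar age and lived in groups, of 3 per cage according to the labels. According to the paper, animals that share a number are siblings, except for some virgins, V3 among them, that are cousins of the animals with their number. The question of the study was whether pair bonding and its loss change gene expression in the lung.

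Macrophages of the lung fall into those of the air spaces, which clear surfactant, dust and microbes, and those of the tissue between airspaces and vessels, which are supplied in part by blood monocytes. Alveolar macrophages depend on the growth factor GM-CSF from the epithelium, which drives the transcription factor PPARG, while the receptor CSF1R serves macrophages and monocytes in general. MARCO is a scavenger receptor that binds bacteria and particles, MRC1 a mannose receptor for sugars on microbes and on the body's own glycoproteins, and SIGLEC1 a lectin that binds sialic acid. CD68 is a protein of late endosomes and lysosomes, ADGRE1 is the surface protein known as F4/80 in mice, and ITGAX is the integrin chain CD11c.

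In units of 1000000 counted fragments, the depth of the libraries was 15.4 to 34.1, worked out from the steps between the deposited FPKM values (fragments per kilobase of gene and per 1000000 fragments). Those values divide the fragments of a gene by a length that belongs to another gene, 1 row further away with each column. The length was therefore replaced by the gene's own in every animal. For the members, the lengths that had been used ran from 106 to 11979 bases, and the own lengths were 1654 bases for Marco, 5290 for Mrc1, 6161 for Siglec1, 3724 for Csf1r, 1791 for Cd68, 3234 for Adgre1 and 2148 for Pparg. The values rest on 64 to 8798 fragments, except for Siglec1, which had 9 to 58. Fragments were not whole to within 0.02 in 8 of the 17 values of Cd68, 7 of Siglec1 and 1 of Csf1r. Such values can arise where a fragment is shared between overlapping genes, which was not tested here. All FPKM below are with the own length, unless they are called deposited.

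Cd68 shows what the replacement does. As deposited it was listed at 8.39 to 681 FPKM, and with its own length it lay between 16.9 and 65.0 FPKM. The deposited values of B1, B2 and B3 were 316, 357 and 681 FPKM, and with the own length they became 25.1, 28.1 and 54.7 FPKM. Between virgin and bonded lungs the log2 fold change of Cd68 was −2.33 as deposited (limma adjusted p = 0.445) and 0.01 with its own length (limma adjusted p = 1).

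**Figure D1:**
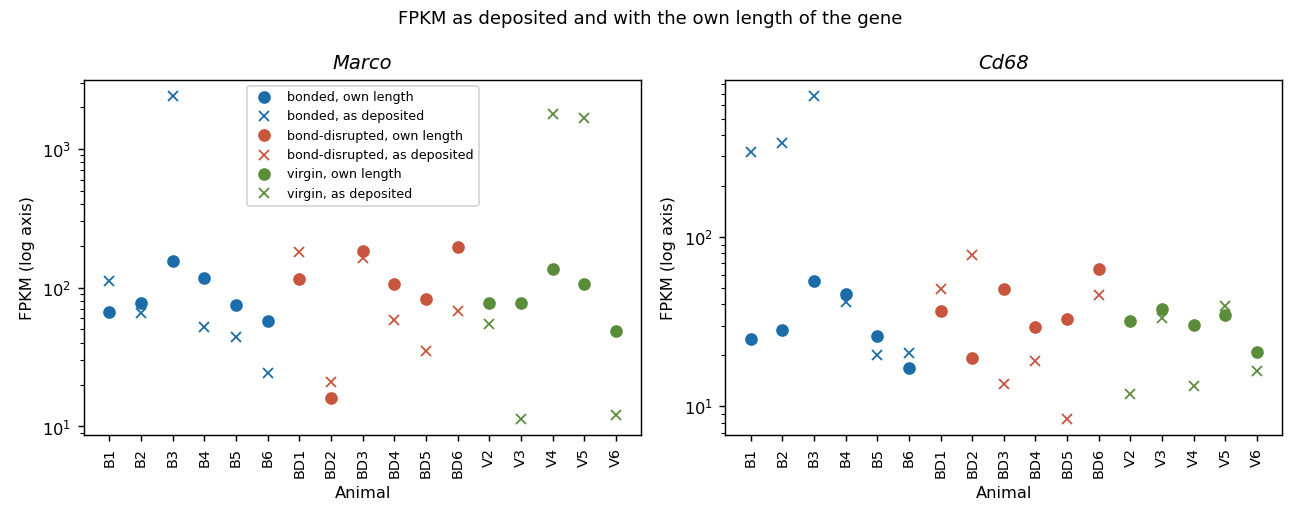
FPKM of Marco (left) and Cd68 (right) in each of the 17 animals on a log axis, as deposited (crosses) and with the gene's own length (circles), coloured by group. The deposited Marco values reach 2410 FPKM in B3, where the own length gives 156 FPKM.

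Marco was the most abundant member in the lung. In bonded animals it was measured at 66.3, 77.5, 156, 118, 75.1 and 57.8 FPKM in B1 to B6 (lowest 57.8, median 76.3, highest 156). In bond-disrupted animals it was 116, 16.1, 183, 107, 83.5 and 196 FPKM in BD1 to BD6 (median 111). In virgins it was 77.8, 77.2, 136, 107 and 48.7 FPKM in V2 to V6. BD2 was the lowest of all animals and BD3 and BD6 were the highest, so the bond-disrupted group spans the range of both other groups.

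Mrc1 was lower than Marco in all 17 lungs. It was 11.7, 12, 24.6, 21.9, 11.7 and 10.5 FPKM in B1 to B6. In BD1 to BD6 it was 12.3, 12.4, 19.5, 11.9, 13.9 and 43.5 FPKM, and in V2 to V6 it was 17.5, 12.1, 8.63, 11.3 and 7.29 FPKM. BD6 was the highest by far, the bonded animals B3 and B4 followed with BD3, and the lowest values were those of the virgins V6 and V4, while the 3 groups overlapped.

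Siglec1 was barely detected. It lay between 0.0641 and 0.374 FPKM over the 17 animals, with medians of 0.197 FPKM in bonded, 0.144 in bond-disrupted and 0.228 in virgin lungs. Because no animal reached 1 FPKM, Siglec1 did not enter the main comparison. The voom fit, which weights fragments by their precision, was used for it instead.

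Csf1r, the receptor for the growth factors CSF1 and IL-34, was measured at 26.4, 36.7, 54.5, 57.4, 26.3 and 21.8 FPKM in B1 to B6. In BD1 to BD6 it was 25.4, 14.6, 58.9, 36.9, 29.4 and 71.2 FPKM, and in V2 to V6 it was 53.9, 47.9, 36.8, 38.3 and 19.5 FPKM. The same animals as for Marco, BD6 and BD2, gave the highest and the lowest value.

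Cd68 was 25.1, 28.1, 54.7, 46.3, 26.0 and 16.9 FPKM in B1 to B6, 36.6, 19.3, 49.4, 29.6, 32.9 and 65.0 FPKM in BD1 to BD6, and 31.9, 37.8, 30.3, 34.7 and 21.0 FPKM in V2 to V6. Adgre1 was far lower, at 1.52, 2.22, 2.66, 4.48, 1.56 and 1.75 FPKM in B1 to B6. It was 1.01, 0.899, 3.38, 2.56, 2.01 and 4.46 FPKM in BD1 to BD6 and 2.20, 2.41, 2.63, 3.10 and 1.35 FPKM in V2 to V6. Both of these genes of macrophages in general were high in B4 and BD6, and the virgins lay inside the range of the bond-disrupted animals.

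Pparg, the transcription factor on which alveolar macrophages depend, was 11.7, 13.2, 18.3, 18.0, 12.7 and 10.1 FPKM in B1 to B6. In BD1 to BD6 it was 16.2, 11.2, 19.0, 16.0, 14.5 and 28.3 FPKM. The 5 virgins were close together, at 14.2, 14.4, 14.5, 15.3 and 13.2 FPKM. BD6 was again the highest.

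**Figure D2:**
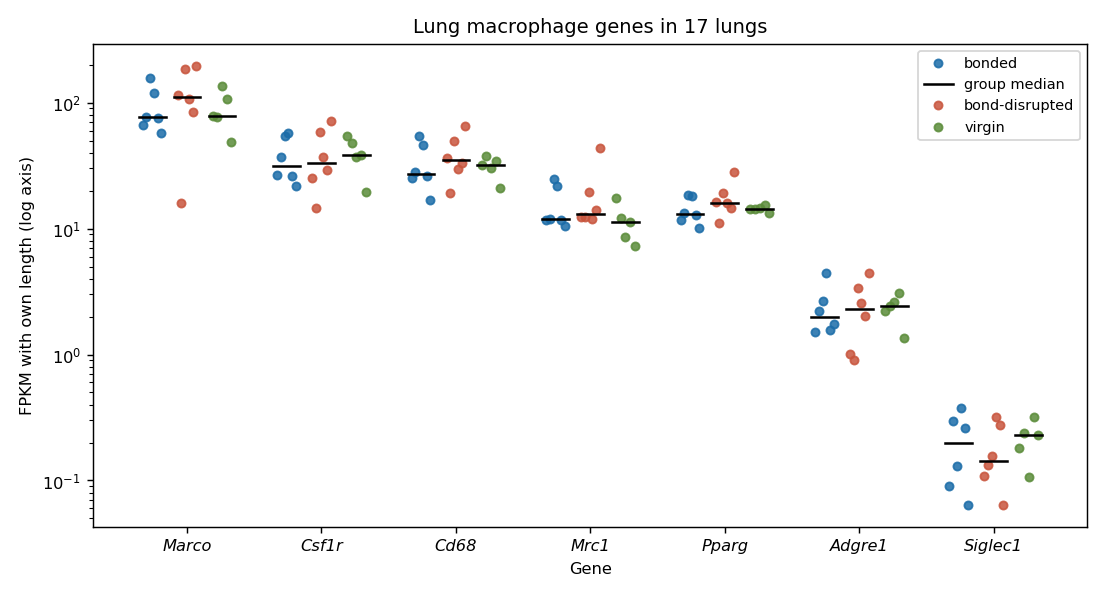
FPKM with the own length on a log axis for the 7 members, ordered by mean; each circle is 1 animal, coloured by group, and the black lines are group medians. The groups overlap for every member, and Marco in BD2 (16.1 FPKM) lies apart from the other 5 bond-disrupted animals.

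Over all 17 lungs the mean levels per length were 99.9 ± 47.6 FPKM for Marco (SD, n = 17), 38.6 ± 16.2 for Csf1r, 34.4 ± 13 for Cd68, 15.5 ± 8.56 for Mrc1, 15.3 ± 4.15 for Pparg, 2.36 ± 1.05 for Adgre1 and 0.197 ± 0.0992 for Siglec1. Marco was above Csf1r in all 17 animals and above Cd68 in 16, the exception being BD2. The neighbours Csf1r and Cd68 were close, with Csf1r higher in 12 of 17 animals, and their difference was not tested. Mrc1 and Pparg were close as well, with Mrc1 the higher in 7 of 17. Every other step between neighbours in this order held in all 17 animals.

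The members differed in how much they varied. On the log2(FPKM + 1) scale the SD between animals was 0.83 for Marco, 0.62 for Csf1r, 0.58 for Mrc1, 0.51 for Cd68, 0.44 for Adgre1 and 0.32 for Pparg. The added 1 lowers the SD of a low gene, and on log2 FPKM without it the SD was 0.85 for Marco, 0.66 for Adgre1, 0.64 for Csf1r, 0.62 for Mrc1, 0.53 for Cd68 and 0.34 for Pparg, so that of these 6 Adgre1 came next after Marco. Siglec1, on 9 to 58 fragments, had 0.82. The median over the 13948 genes tested was 0.20 on the log2(FPKM + 1) scale. On that scale Marco varied more than 98.4% of those genes and Pparg more than 77.0%. From the lowest to the highest animal Marco ranged over 12.2-fold, Mrc1 over 5.96-fold, Adgre1 over 4.98-fold, Csf1r over 4.87-fold, Cd68 over 3.85-fold and Pparg over 2.80-fold. Single animals set the ranges of Marco, Mrc1 and Pparg, since without BD2 Marco ranged over 4.02-fold with an SD of 0.58 on the log2(FPKM + 1) scale, near that of Csf1r and Mrc1, and without BD6 Mrc1 ranged over 3.38-fold and Pparg over 1.88-fold. Leaving out these 2 animals was chosen after seeing the data. Of the variance of log2 FPKM, the part that lies between the 3 groups was 0.388% for Marco, 0.577% for Csf1r, 0.954% for Adgre1, 5.26% for Cd68, 15.3% for Pparg and 17.4% for Mrc1. For Siglec1 it was 4.23%. Such a share lies above 0 also where groups do not differ, and the shares were not tested. They depended on BD2 and BD6. Without BD2 they were 24.8% for Marco, 3.33% for Csf1r, 0.866% for Adgre1, 16.2% for Cd68, 30.7% for Pparg and 20.7% for Mrc1, and without BD6 they were 0.487%, 4.78%, 7.44%, 0.590%, 5.97% and 16.0%.

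The comparison of bond-disrupted with bonded lungs asks whether separation from the partner changed the genes. The 6 members that reached 1 FPKM in any animal were tested, in a limma fit over all 17 animals on log2(FPKM + 1). The threshold for a call was a Benjamini-Hochberg adjusted p under 0.1 together with a 2-fold difference or more. No member was called, as was no other of the 13948 genes tested (0% called). At an unadjusted p under 0.05 there were 0 of the 6 members and 818 of all genes (5.86%), and voom on the recovered fragments also called 0, here and in the comparisons that follow. The log2 fold changes were 0.28 for Pparg (SE 0.17, 95% interval −0.09 to 0.65), 0.24 for Cd68 (SE 0.29), 0.19 for Mrc1 (SE 0.30), 0.09 for Marco (SE 0.47), −0.00241 for Csf1r (SE 0.35) and −0.04 for Adgre1 (SE 0.25), with limma adjusted p from 0.869 to 0.999. The intervals of Csf1r, Cd68, Mrc1, Adgre1 and Pparg lay within a 2-fold change either way, and that of Marco, −0.90 to 1.09, did not, all on the log2(FPKM + 1) scale, which understates changes of a low gene such as Adgre1. The median of the 6 was 0.14, and 0.01 over all genes tested. BD2 and BD6 moved these values in opposite directions. Without BD2, the log2 fold change was 0.58 for Marco, 0.39 for Pparg (limma adjusted p = 0.585), 0.42 for Cd68, 0.27 for Mrc1, 0.24 for Csf1r and 0.11 for Adgre1. Without BD6 it was −0.12 for Marco, 0.14 for Pparg, 0.0762 for Cd68, −0.0762 for Mrc1, −0.21 for Csf1r and −0.20 for Adgre1.

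The comparison of virgin with bonded lungs sets males without a pair bond against paired males. Virgins lived in groups and bonded males with a female, so pairing and housing cannot be told apart. Again 0 of the 6 members were called and 0 of all genes (0%), with 0 members and 499 genes (3.58%) at an unadjusted p under 0.05. Mrc1 was lower in virgins, with a mean of 11.4 ± 3.96 FPKM (SD, n = 5) against 15.4 ± 6.17 (n = 6), but its log2 fold change of −0.39 (SE 0.32, interval −1.06 to 0.29, limma adjusted p = 1) did not exceed the spread. The other 5 members differed by −0.03 for Marco, 0.10 for Csf1r, 0.02 for Adgre1, 0.01 for Cd68 and 0.06 for Pparg. The median was 0.01, the same as over all genes. The intervals of Marco (−1.08 to 1.02) and of Mrc1 reached beyond a 2-fold change.

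Virgin against bond-disrupted lungs, a comparison that shares its animals with the former ones, gave 0 members called and 0 genes of all tested (0%), with 0 members and 597 genes (4.28%) at an unadjusted p under 0.05. Mrc1 had the lowest p of any member in any comparison. Its mean was 11.4 FPKM in virgins and 18.9 ± 12.4 (SD, n = 6) in bond-disrupted lungs, a log2 fold change of −0.57 (SE 0.32, interval −1.25 to 0.10, unadjusted p = 0.0892, limma adjusted p = 0.943), and without BD6 it was −0.31. Pparg differed by −0.22, Cd68 by −0.23, Marco by −0.13, Csf1r by 0.10 and Adgre1 by 0.06. Without BD6 these were −0.0798, −0.069, 0.0879, 0.30 and 0.22, and without BD2 they were −0.33, −0.41, −0.62, −0.14 and −0.0873, with −0.66 for Mrc1. The median was −0.18, and 0.00428 over all genes tested. Siglec1, in the voom fit, differed by −0.04, 0.32 and 0.36 on the log2 scale in the 3 comparisons (voom adjusted p = 0.995, 0.999 and 0.950).

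**Figure D3:**
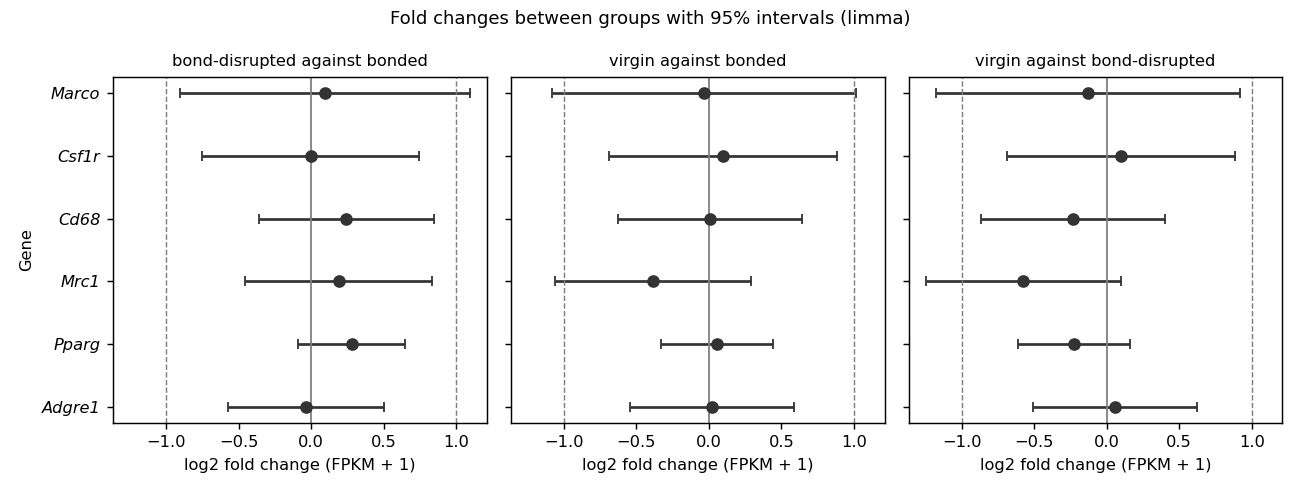
Log2 fold changes of the 6 tested members with 95% intervals from limma, in 3 panels for the comparisons named above each; dashed lines mark a 2-fold change. Every interval includes 0, and the widest are those of Marco.

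In several animals the members moved together. In BD6, 6 of the 7 members were above their mean over the 17 lungs, and Siglec1 was below. In B4 all 7 were above. In B6, BD2 and B1 none was. Other animals were mixed. In V4 the log2 deviation was 0.64 for Marco and −0.70 for Mrc1, and in BD1 it was 0.40 for Marco and −1.09 for Adgre1. The mean of the log2 deviations of the members was 0.77 in BD6, 0.68 in B4 and 0.54 in BD3, and −0.95 in BD2, −0.70 in B6 and −0.53 in V6. High and low animals occurred in bonded and bond-disrupted groups, where this mean ranged from −0.70 to 0.68 and from −0.95 to 0.77, and the virgins ranged from −0.53 to 0.24.

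**Figure D4:**
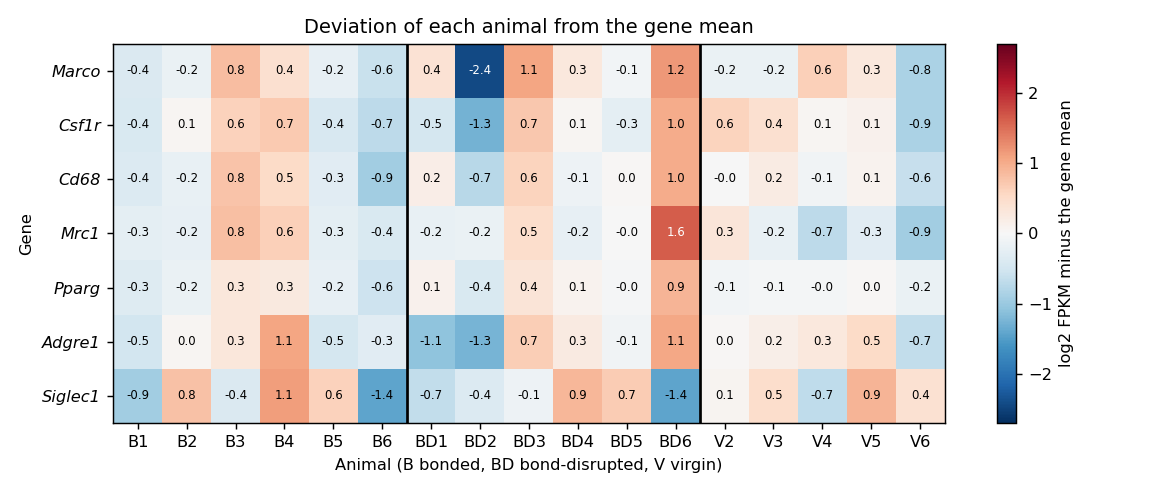
Log2 FPKM of each member in each animal minus the mean of that gene over 17 animals (red above, blue below, with the value in the cell); black lines separate bonded, bond-disrupted and virgin animals. The columns of B3, B4, BD3 and BD6 are mostly red and those of B6, BD2 and V6 mostly blue.

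All 21 pairs of the 7 members were correlated over the 17 animals on log2(FPKM + 1), with two-sided permutation tests of 100000 draws, Benjamini-Hochberg adjusted over the 21 pairs. The siblings among them are not independent of each other. Of the pairs, 14 passed an adjusted p under 0.05, all 14 among the 15 pairs without Siglec1. Spearman's rho also passed in 14, but there Mrc1 with Adgre1 failed (rho = 0.431, permutation adjusted p = 0.118) and Marco with Mrc1 passed. Cd68 and Pparg had r = 0.927 (rho = 0.914, permutation p = 1e-05, the smallest these draws can give, adjusted p = 7e-05). Csf1r had r = 0.885 with Adgre1 (rho = 0.909) and 0.875 with Cd68 (rho = 0.853), both at the same smallest permutation p. Marco was correlated with Cd68 at r = 0.815 (permutation adjusted p = 8.4e-05), with Csf1r at 0.811 and with Pparg at 0.778. The pair of Marco and Mrc1, the 2 receptors for microbes, had the lowest r of the 15, at r = 0.528 and rho = 0.554 (permutation adjusted p = 0.0526 and 0.0344). Siglec1 had an r of −0.17 to 0.25 with the others, on 9 to 58 fragments.

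The relations were also computed within the 2 groups of 6 animals. With the group means taken off, the median r of the 15 pairs was 0.825 (0.787 before) and the lowest 0.554. Within the 6 bonded animals the median r was 0.957, and within the 6 bond-disrupted animals 0.846. Correlations within a group were computed only for groups of at least 6 animals, and so not for the 5 virgins. Whether the relations hold among the virgins is therefore not shown. Without the 2 animals farthest from the median of the gene first named, r remained between 0.522 and 0.913. The replicate numbers, which mark families, as a block left 15 pairs at an adjusted p under 0.05. With the deposited values no pair passed (0 of 21, median r 0.01).

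**Figure D5:**
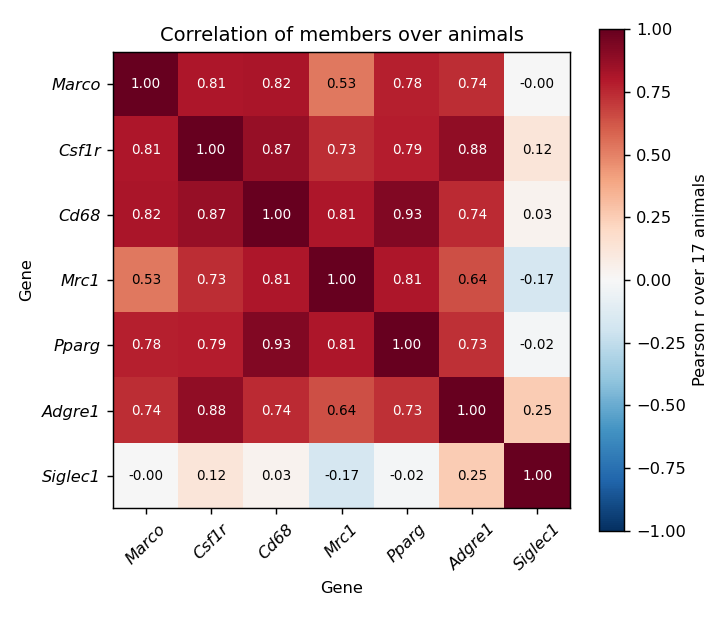
Pearson r over 17 animals for each pair of the 7 members, on log2(FPKM + 1), ordered by mean level. The 15 pairs without Siglec1 lie between 0.528 and 0.927, and those with Siglec1 near 0.

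No member was correlated with depth at an adjusted p under 0.05 (r from −0.20 to 0.25, permutation adjusted p from 0.648 to 0.942). Summed markers of several other cell types moved with some of the members. Over 56 relations of 8 summed marker lists with the 7 members, the neutrophil list (5 of 8 genes measured, from 3.86 to 21.0 FPKM, most of it Csf3r) was correlated with 5 members at a permutation adjusted p under 0.05, strongest with Csf1r (r = 0.889, rho = 0.865, and r = 0.85 without the 2 farthest animals). The alveolar type 2 list (4 of 6 genes, 15219 to 32503 FPKM, of which Sftpc made up 84.9% on average) was correlated with 4 members, at r = 0.819 with Cd68 (rho = 0.826) and 0.798 with Pparg (rho = 0.814), which became 0.703 and 0.707 without the 2 farthest animals, while r with Csf1r went from 0.618 to 0.382 and with Marco from 0.721 to 0.57. The T cell list (2 of 5 genes, Cd4 and Cd8a) was correlated with 4 members, at r = 0.835 with Csf1r, 0.725 with Marco, 0.704 with Adgre1 and 0.646 with Cd68, which became 0.727, 0.435, 0.607 and 0.437 without the 2 farthest animals. The B cell list (3 of 4) was correlated with 3 members, Marco, Csf1r and Adgre1, at r = 0.685, 0.662 and 0.594, which became 0.432, 0.486 and 0.397 without the 2 farthest animals. No member passed with the endothelial list (4 of 4 genes), where r was −0.56 with Marco (permutation adjusted p = 0.0618), nor with the alveolar type 1, dendritic and adipocyte lists. Gene by gene, 1 of the 4 tested neutrophil genes and 1 of the 4 alveolar type 2 genes had r of at least 0.5 with Marco. It was 3 of 4 neutrophil genes with Csf1r, and 3 of 4 alveolar type 2 genes with Cd68 and with Pparg. The part of the other cell types in the members' values was not tested. In whole lung, fewer macrophages and less RNA of a gene per macrophage cannot be told apart.

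By group, the neutrophil list lay between 6.02 and 19.96 FPKM in bonded, 3.86 and 18.4 in bond-disrupted and 6.75 and 21.0 in virgin lungs. The alveolar type 2 list, which marks the tissue as lung, had medians of 21956, 26125 and 22200 FPKM. The adipocyte list stayed under 1.15 FPKM in every animal, and Lep, its hormone gene, was under 0.1 FPKM on average.

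Each member was set against the other genes with a mean of at least 5 FPKM over the 17 animals (8784 for Siglec1 and Adgre1, which are themselves below that level, and 8783 for the other 5 members). The 3 nearest to Marco were Abhd12, a lipase of lysophosphatidylserine (r = 0.948), Fcer1g, the signalling chain of Fc receptors (0.948), and Pon2, a paraoxonase (0.935). Nearest to Csf1r were LOC128113011 (0.975), Nckap1l, an actin regulator of blood cells (0.960), and Itgb2, the integrin chain CD18 with which ITGAX pairs (0.948). For Cd68 they included the long non-coding RNA LOC128097542 (0.959) and Mcemp1 (0.948). Nearest to Pparg were Hacd2, an enzyme of very long chain fatty acid synthesis (0.941), Mcemp1 (0.936) and the long non-coding RNA LOC128111900 (0.931). For Mrc1 they included Dab2, an endocytic adaptor (0.925), and Fubp1 (0.881). Those of Adgre1 were LOC128105470 (0.888), Csf1r (0.885) and LOC128115186 (0.882). Siglec1 had only weaker ones, led by Arhgef15 (0.780), LOC128098531 (0.753) and Pid1 (0.738).

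Of the gene lists, those of macrophages in general had the following correlations with the members. For the 12 genes of the general macrophage list that are not members, such as Fcer1g, Tyrobp and Ctss, the median r was 0.805 with Marco, 0.748 with Csf1r, 0.742 with Cd68, 0.71 with Pparg, 0.707 with Adgre1 and 0.606 with Mrc1. Over all tested genes it was −0.06 to −0.01. The 11 genes of the alveolar macrophage list had a median r of 0.436 with Marco to 0.557 with Cd68, and the 17 of the interstitial macrophage and monocyte list 0.132 with Mrc1 to 0.427 with Marco. Some lists of other cells reached medians as high or higher than the last 2 lists with some members. The T cell list (2 genes) had 0.640 with Marco and 0.740 with Csf1r, the B cell list (3 genes) 0.646 with Marco, the neutrophil list (4 genes) 0.624 with Csf1r and the alveolar type 2 list (4 genes) 0.611 with Pparg. With Mrc1 the T cell and B cell medians were 0.321 and 0.271, against 0.481 for the alveolar macrophage list. Medians ran from −0.15 to 0.25 for the dendritic list, −0.05 to 0.33 for alveolar type 1 and −0.48 to −0.31 for endothelial. These are descriptions over the same 17 libraries.

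Whether siblings resemble each other in the members was asked of the 6 sibling pairs that join B1 to B6 with BD1 to BD6. Pearson r of the pairs was 0.818 for Siglec1 (one-sided exact permutation p = 0.0278, adjusted over the 7 members 0.194), 0.229 for Adgre1, 0.172 for Marco, 0.0159 for Csf1r, −0.20 for Cd68, −0.22 for Mrc1 and −0.28 for Pparg. The adjusted exact permutation p of the 6 members other than Siglec1 was 0.678. The smallest p that the 720 pairings allow is 0.00139, and no member passed.

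The genes around the members were read from 5 lists. Over these lists and the 3 comparisons, 5 of 207 tests of a list gene (2.42%, genes on several lists counted in each) had an unadjusted p under 0.05, against 3.58% to 5.86% of all genes tested. Of the growth factors and receptors 9 of 13 were tested, none at an adjusted p under 0.1. Between bond-disrupted and bonded lungs none had an unadjusted p under 0.05, the median log2 fold change was 0.01, and the most abundant genes were Tgfbr2, a receptor of TGF-beta (72.3 FPKM), and Csf1r. In virgins against bonded lungs 1 was higher, Cx3cl1, the ligand of the monocyte receptor CX3CR1, at 32.2 ± 7.74 FPKM (SD, n = 5) against 22.3 ± 7.96 (n = 6), a log2 fold change of 0.55 (SE 0.24, limma adjusted p = 1), the only one with an unadjusted p under 0.05. Between virgin and bond-disrupted lungs the median was −0.05.

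Of the alveolar macrophage list 14 of 25 were tested. Slc7a2, a transporter of arginine, was the only one with an unadjusted p under 0.05, higher in bond-disrupted than bonded lungs by 0.56 (SE 0.25, limma adjusted p = 0.847), at 6.27 ± 2.93 FPKM against 3.86 ± 1.69. The medians of the list were 0.14, −0.02 and −0.17 in the 3 comparisons, and its most abundant genes were Cd9 (375 FPKM) and Fabp5 (134 FPKM), a binding protein of fatty acids. For the interstitial macrophage and monocyte list, 18 of 24 genes were tested, and Maf, a transcription factor of macrophages, was at a log2 fold change of −0.21 between virgin and bond-disrupted lungs, with an unadjusted p under 0.05 (SE 0.08, limma adjusted p = 0.943). The list's medians were −0.000661, 0.03 and 0.03, and Cd74 (1224 FPKM) and Apoe (269 FPKM) led it. Of the 15 genes tested among the 19 of the general macrophage list none had an unadjusted p under 0.05 in any comparison, with medians of 0.06, 0.01 and −0.15, led by the protease gene Ctsd (627 FPKM) and Fcer1g (139 FPKM).

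Among lipid and PPARG target genes, 13 of 15 were tested. Abca1, the exporter of cholesterol, was at 10.3 ± 2.63 FPKM in bond-disrupted (SD, n = 6), 7.04 ± 1.07 in bonded (n = 6) and 7.52 ± 2.01 in virgin lungs (n = 5). It differed by 0.47 from bonded to bond-disrupted (SE 0.17, limma adjusted p = 0.805) and by −0.40 from bond-disrupted to virgin lungs (SE 0.18, limma adjusted p = 0.943), both with an unadjusted p under 0.05. Both of these comparisons use the same bond-disrupted animals. The list's median was 0.15 between bond-disrupted and bonded lungs, with 12 of 13 genes above 0. Of all genes tested, 52.3% were above 0, at a median of 0.01. In this comparison 10 of 14 genes of the alveolar macrophage list and 9 of 15 of the general macrophage list were above 0. It was 9 of 18 in the interstitial macrophage and monocyte list and 5 of 9 for the growth factors and receptors. The lipid list, which holds the member Pparg, was not tested as a whole. Its median was −0.02 between virgin and bonded and −0.12 between virgin and bond-disrupted lungs, with 6 and 3 genes above 0. Npc2 (573 FPKM) and Cd36 (235 FPKM) were the most abundant of them. No list gene reached an adjusted p under 0.1.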

How the data were processed

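The authors made directional RNA libraries from 1 µg of lung RNA, 1 per animal. The submitters' processing notes name FastQC, Trim Galore 0.4.5, STAR 2.7.2, SAMtools 1.5, featureCounts and Subread 1.5.3; the genome build and annotation are not given in the sources used here. The deposited values are FPKM, per the file headers 1 column per animal. From their steps, depths and gene lengths were recovered (24972 of 27787 lengths; 98.8% of 294193 values came within 0.01 of a multiple of 0.5 fragments, and 3.98% with the length of the row's own gene). All 27786 names match RefSeq symbols of the assembly ASM782708v3.

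The own-length FPKM of the 13948 genes that reached 1 FPKM in any animal were tested as log2(FPKM + 1), which understates changes of low genes, with limma 3.58.1 in R 4.3.3, the 3 groups in 1 fit. The study's methods name limma in iDEP, on FPKM. Correlations were computed in Python 3.11.15 with scipy 1.17.1. Procedures were tested on simulated data. The members and gene lists were chosen with earlier results of these data known. Named are all members, the 3 genes most correlated with each (of which 2 genes are not reported here), and list genes at p under 0.05 (at most 4 per list and comparison), or else the 2 most abundant of a list. The p-values measure the spread between animals. Alternatives are given in the closing section.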

Additional observations from a re-analysis of the deposited data

Results flagged for a closer look

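Of 21 groups of 5 or 6 animals (7 members in 3 groups), 2 held a value far from the others by Dixon's test on log2(FPKM + 1), where chance marks about 1 in 20 groups. Marco in BD2 was 16.1 FPKM, and the gap to the next bond-disrupted animal was 0.654 of the group's range. Mrc1 in BD6 was 43.5 FPKM, with a gap of 0.627 of the range. BD2 was also low in Csf1r (14.6 FPKM) and Adgre1 (0.899 FPKM), and BD6 was the highest animal in Marco, Csf1r, Cd68, Mrc1 and Pparg.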

How the results depend on the processing

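The counts of members called were 0 under all 11 alternatives on all animals and with each animal left out. Over all genes the calls were also 0, except with FPKM as deposited (40, 113 and 35 of 18602 genes in the 3 comparisons) and without BD6 (1 of 13711 genes in virgin against bond-disrupted). Of 204 log2 fold changes of members under those alternatives, 182 kept their sign, and 22 near 0 or from deposited values turned. With FPKM as deposited, bond-disrupted against bonded came to −0.58 for Marco, −1.08 for Mrc1, 0.73 for Siglec1 and −1.92 for Cd68, virgin against bonded to 0.26 for Marco, −0.20 for Csf1r and −2.33 for Cd68, and virgin against bond-disrupted to 0.84 for Marco, −0.46 for Siglec1 and 0.34 for Pparg. This alternative keeps the lengths of other genes. The median-ratio factor gave 0.0042 for Csf1r (bond-disrupted against bonded) and −0.00418 for Cd68 (virgin against bonded), voom 0.00193 for Csf1r, and quantile normalization 0.0012 for Adgre1 and −0.000218 for Cd68 in the same comparisons. The additive fit gave 0.16 for Marco, −0.0125 for Csf1r and −0.0208 for Cd68 in virgin against bonded, and 0.057 for Marco in virgin against bond-disrupted. The replicate block gave −0.0182 for Cd68 and −0.0802 for Adgre1 in virgin against bonded and −0.0423 for Adgre1 in virgin against bond-disrupted, and changed no call. The cause was not tested. Same-numbered animals, siblings and cousins together, deviated together by more than 0.1 in 7 of 16 pairs (r from −0.33 to 0.43). The pair of B2 and BD2 was barely above that, at 0.1002. Of 17 animals, 7 were most like one of their own number. Pairs of different numbers were not counted beside these, so how unusual the counts are is not shown.

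With each animal left out in turn, the log2 fold change turned sign in 39 of 306 values. In bond-disrupted against bonded it ran from −0.12 to 0.58 for Marco, −0.0762 to 0.33 for Mrc1, −0.21 to 0.24 for Csf1r and −0.20 to 0.11 for Adgre1, and kept its sign at 0.14 to 0.39 for Pparg and 0.0762 to 0.42 for Cd68. In virgin against bonded it ran from −0.20 to 0.16 for Marco, −0.0331 to 0.32 for Csf1r, −0.16 to 0.17 for Cd68, −0.0588 to 0.17 for Adgre1 and −0.0239 to 0.14 for Pparg, and kept its sign at −0.55 (without V2) to −0.24 (without B3) for Mrc1. In virgin against bond-disrupted it ran from −0.62 to 0.0879 for Marco, −0.14 to 0.33 for Csf1r and −0.0873 to 0.22 for Adgre1, and kept its sign at −0.33 to −0.0798 for Pparg, −0.41 to −0.069 for Cd68 and −0.73 (without V2) to −0.31 (without BD6) for Mrc1. Pairs of members at an adjusted p under 0.05 numbered 14, 13 to 15 with each animal left out, 14 or 15 under 5 alternatives and 0 with FPKM as deposited. The count of members alike in siblings was 0 throughout, but with 1 pair left out the smallest p of 5 pairs is 0.00833, or 0.0583 adjusted for a single member over 7, so that these settings could not pass 1 member alone. Of Siglec1, at 9 to 58 fragments, only large changes could be seen.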

Other observations

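The ratio of Mrc1 to Csf1r was looked at after the values were seen. It lay between 0.234 and 0.374 in the virgins, 0.327 and 0.481 in bonded and 0.323 and 0.846 in bond-disrupted lungs, so that virgins overlapped both groups a little at the top. Against bonded lungs the mean log2 ratio was lower by −0.52 (two-sided exact permutation test, p = 0.00866), and against bond-disrupted lungs by −0.72 (exact permutation p = 0.026). Over the 45 tests of 15 such ratios in 3 comparisons the adjusted p of both was 0.39, and 0 of 45 passed 0.1. The ratio of Mrc1 to Cd68 was lower in virgins than in bonded lungs by −0.43 (exact permutation p = 0.026, adjusted p = 0.39). These exact tests shuffle the animals of the groups compared freely and take no account of siblings and cousins.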
